A study of Caenorhabditis elegans with 6 samples.

Results

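The genes described here encode 9 regulators of fat metabolism in *Caenorhabditis elegans*. They are the nuclear receptor gene *nhr-49*, the genes of 4 receptors that bind NHR-49 (*nhr-13*, *nhr-66*, *nhr-79* and *nhr-80*), the Mediator subunit gene *mdt-15*, and the transcription factor genes *sbp-1*, *hlh-30* and *skn-1*. They were chosen by name, and all 9 were found among the 28641 genes of the expression table. RNA was sequenced from 3 WT libraries, of the strain Bristol N2, and 3 libraries of *alh-4(-)* worms, which carry the deletion allele *hj221* in the same background and lack the membrane-associated fatty aldehyde dehydrogenase ALH-4. All libraries came from whole bodies of synchronized, untreated L4 larvae grown at 20 °C on *E. coli* OP50, and were prepared with a Smart-seq2 protocol adapted to worms. Expression was measured as FPKM, fragments scaled by the exon length of the gene and the mapped total of the library, which allows levels to be compared between genes of different length. In whole-worm RNA, fewer cells of a type and less RNA per cell cannot be told apart.

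Nuclear receptors are transcription factors that bind DNA as single molecules or in pairs, often under the control of a small lipid ligand. NHR-49 is related in sequence to the mammalian receptor HNF4 and serves functions like those of PPARα: it governs genes of fatty acid oxidation and desaturation, and pairs with other receptors to reach different sets of genes. MDT-15 links NHR-49, SBP-1 and SKN-1 to RNA polymerase II. SBP-1 is the worm SREBP, a membrane-bound factor that is freed by cleavage and activates lipid synthesis. HLH-30 is the worm TFEB, which moves into the nucleus on fasting and activates lysosomal lipases and autophagy. SKN-1 is the worm Nrf factor, which is held down by degradation and activates detoxification genes. Each of the latter factors can thus change in activity without a change in its mRNA, which is the quantity measured here.

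The targeted gene was low in the libraries labelled *alh-4(-)*. The *alh-4* level was 326 ± 31.5 FPKM in WT and 31.2 ± 5.71 FPKM in *alh-4(-)* (SD, n = 3 each), with a log2 fold change of -3.36 ± 0.22 (SE, limma, adjusted p = 0.00301). Genes were compared between genotypes with limma on log2(FPKM + 1), over the 16225 genes whose FPKM averaged 1 or more, so that every fold change given on this scale is somewhat understated for low genes. Of these genes, 0.142% (23) had an adjusted p under 0.05, 4.97% (806) had an unadjusted p under 0.05, and 2.92% (473) passed the thresholds of the study, a fold over 2 with an unadjusted p under 0.05. The study used these thresholds with a negative binomial test, so its own count is not comparable with the 473 here. If no gene differed, 811 of the 16225 would be expected to have an unadjusted p under 0.05. Of the genes with an unadjusted p under 0.05, 507 were higher and 299 lower in *alh-4(-)*, against 469 and 441 after upper quartile scaling. The balance turned with single libraries, since leaving out *alh-4(-)* replicate 1 gave 1418 genes above and 360 below WT, leaving out replicate 2 of that genotype gave 273 and 353, and leaving out its replicate 3 gave 284 and 341. The replicate 1 libraries stood apart in both genotypes, with 19102 genes above 0 in WT and 17623 in *alh-4(-)*, against 21058 to 22670 in the other 4 libraries. Of 8 genes that mark the moult and the late L4 stage, 8 had a lower estimate in *alh-4(-)*, and 4 of them passed the study's thresholds. Their summed level was 4957 to 6654 FPKM in WT and 1272 to 5239 FPKM in *alh-4(-)*, and *noah-2*, a gene of the extracellular matrix at the moult, was at 0 in *alh-4(-)* replicate 1. Of 6 hypodermis markers, 5 had a lower estimate, and the median log2 fold change was -0.74. Their summed levels were 4534 to 12433 FPKM in WT and 5818 to 9536 FPKM in *alh-4(-)*. Most of each sum was *dpy-5*, at 4080 to 11835 FPKM in WT and 5447 to 9279 FPKM in *alh-4(-)*. The cuticle collagen gene *dpy-10* was at 0 in WT replicate 2. Of 7 germline markers, 3 (*gld-1*, *oma-1* and *oma-2*) were higher in every *alh-4(-)* library than in every WT library, as were 5.97% of all tested genes. At an unadjusted p under 0.05 (limma), 2 of the 7 were higher, against 3.12% of all tested genes in that direction. Of the 7, 1 was higher past the study's thresholds, against 2.92% of all tested genes in either direction. The summed germline levels of 9315 to 15375 FPKM in WT and 11135 to 13626 FPKM in *alh-4(-)* overlapped. Most of each sum was *glh-1*, at 7855 to 13024 FPKM in WT and 9219 to 11375 FPKM in *alh-4(-)*. The 7 intestinal markers were above 0 in every library, with 0 of 7 separated between genotypes. The part of stage or tissue composition in the results below was not tested.

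The mRNAs of the 9 regulators spanned a wide range of levels and kept the same order in both genotypes. In WT the order of the mean levels was *nhr-49* (817 FPKM), *nhr-13* (129.8 FPKM), *mdt-15* (91.3 FPKM), *skn-1* (34.2 FPKM), *nhr-66* (24.0 FPKM), *nhr-80* (21.04 FPKM), *sbp-1* (18.6 FPKM), *hlh-30* (11.4 FPKM) and *nhr-79* (4.11 FPKM). Neighbours in this order overlapped over the WT libraries for *nhr-13* with *mdt-15*, *nhr-66* with *nhr-80*, and *nhr-80* with *sbp-1*. In *alh-4(-)* libraries no neighbours overlapped. The 2 ends of the order were both nuclear receptors: *nhr-49* stood above 96.4% of all tested genes by its WT mean, and *nhr-79* above 23.4%.

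**Figure D1:**
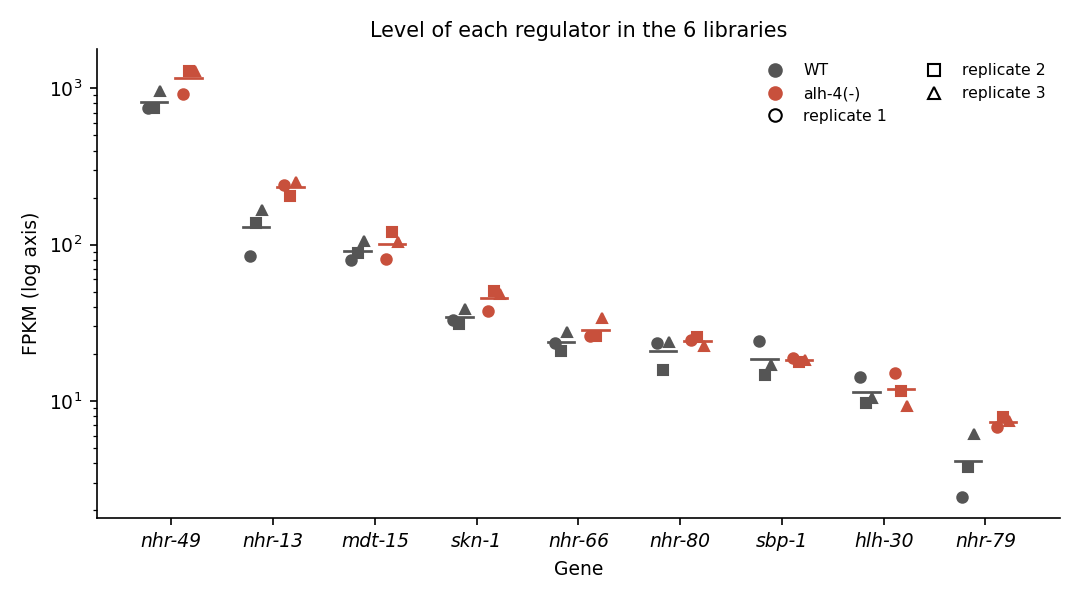
FPKM (log axis) of the 9 regulator genes, in order of their WT mean, in 3 WT libraries (grey) and 3 *alh-4(-)* libraries (red), where symbols mark replicate numbers and horizontal bars the genotype means. The red points lie wholly above the grey points for *nhr-13* and *nhr-79* and overlap them for the other 7 genes.

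The test across all genes called none of the 9 regulators. With an adjusted p under 0.05 (limma) there were 0 of 9, against 0.142% of all tested genes, and 0 of 9 passed the study's thresholds, against 2.92%. At an unadjusted p under 0.05 there was 1 of 9, *nhr-13*, which was higher in *alh-4(-)*, against 3.12% of all tested genes in that direction. The number was 0 of 9 without *alh-4(-)* replicate 3, against 1.75% of all genes in that direction. Without WT replicate 3 it was 3 of 9 (*nhr-13*, *nhr-49* and *nhr-79*), against 3.65%. With array quality weights, which also brought in *skn-1*, it was 4 of 9, against 11.12%. In 2 of 9 genes, *nhr-13* and *nhr-79*, the lowest *alh-4(-)* value exceeded the highest WT value, against 5.97% of tested genes. The estimated difference was above 0 for 9 of 9 genes, but those of *sbp-1* and *hlh-30* turned below 0 after quantile normalization and upper quartile scaling. Over the 9 genes the median log2 fold change was 0.24, and it was 0.07 over all tested genes. Without *alh-4(-)* replicate 1, these medians were 0.31 and 0.24.

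**Figure D2:**
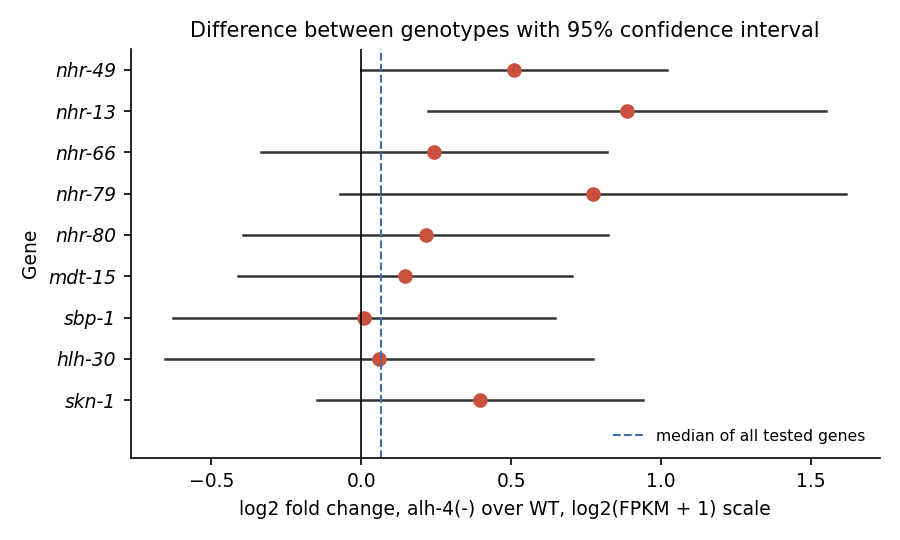
Log2 fold change of *alh-4(-)* over WT on the log2(FPKM + 1) scale (points) with its 95% confidence interval from limma (lines) for the 9 regulator genes, and the median of all tested genes (dashed line, 0.07). The interval of *nhr-13*, from 0.22 to 1.55, lies above 0, that of *nhr-49* reaches 0 at its lower end, and the other 7 intervals span 0.

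The *nhr-49* gene lies on chromosome I from 9869651 to 9874680 on the plus strand in the WBcel235 annotation, which lists 7 transcripts. The WT replicates 1 to 3 had 744, 748 and 960 FPKM of its mRNA, and the *alh-4(-)* replicates 1 to 3 had 926, 1299 and 1285 FPKM. The genotypes overlapped only through the highest WT library and the lowest *alh-4(-)* library. The ratio of the means was 1.43, and on the log2 scale the difference was 0.51 ± 0.22 (SE), with a 95% confidence interval of -0.00120 to 1.02, an unadjusted p of 0.0504 and an adjusted p of 0.9998 (limma). An exact permutation test of the FPKM gave p = 0.2. The estimate ranged from 0.43 to 0.67 when single libraries were left out, and the unadjusted p reached 0.0161 without *alh-4(-)* replicate 1 and 0.163 without *alh-4(-)* replicate 2. No alternative brought the adjusted p below 0.197.

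For *nhr-13* and *nhr-79*, of the 4 partner receptors, every *alh-4(-)* library was above every WT library, as for 5.97% of all tested genes. The genotypes overlapped for *nhr-66* and *nhr-80*. NHR-13 acts with NHR-49 on genes of fatty acid desaturation. Its gene, on chromosome V from 2192485 to 2196827, was listed at 85.0, 138 and 167 FPKM in WT replicates 1 to 3, and at 240.2, 205 and 253 FPKM in *alh-4(-)* replicates 1 to 3. The lowest *alh-4(-)* library was above the highest WT library. The estimated log2 fold change was 0.88 ± 0.28 (SE), with a 95% confidence interval of 0.22 to 1.55, an unadjusted p of 0.0159 and an adjusted p of 0.728 (limma), so that the difference did not pass the correction over all genes. The exact permutation test gave p = 0.1, the smallest that 3 libraries against 3 allow. WT replicate 1 was the lowest of the 6 libraries, and without it the estimate was 0.61 with an unadjusted p of 0.0390 (limma). Without *alh-4(-)* replicate 3 the unadjusted p was 0.0530 (limma).

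NHR-79 binds NHR-49, and the study went on to examine both in the response to the loss of ALH-4. The *nhr-79* gene lies on chromosome V from 19207676 to 19211895 on the minus strand. It had the lowest level of the 9 genes, at 2.45, 3.77 and 6.12 FPKM in WT replicates 1 to 3 and 6.80, 7.88 and 7.44 FPKM in *alh-4(-)* replicates 1 to 3. The WT libraries spread widely and the *alh-4(-)* libraries lay close together, with coefficients of variation of 45.2% and 7.35%, against medians over all tested genes of 27.8% and 30.6%. On the log2 scale the difference was 0.77 ± 0.36 (SE), with a 95% confidence interval of -0.07 to 1.62, an unadjusted p of 0.0671 and an adjusted p of 0.9998 (limma). Although the genotypes did not overlap, the size of the difference moved with single WT libraries, and was 0.52 without WT replicate 1 and 1.04 without WT replicate 3. Its unadjusted p was under 0.05 in 3 of the alternative fits, among them the fit without WT replicate 3 (0.0275, limma). The ratio of the means was 1.79, as it was for *nhr-13*.

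The other partners were close in level to each other. NHR-66 pairs with NHR-49 in the repression of genes of sphingolipid metabolism. Its gene was listed at 23.6, 20.8 and 27.7 FPKM in WT replicates 1 to 3, and at 25.9, 26.2 and 33.8 FPKM in *alh-4(-)* replicates 1 to 3. The genotypes overlapped, and the log2 fold change was 0.24 (95% confidence interval -0.33 to 0.82, limma, adjusted p = 0.9998). In the annotation, exons of *nhr-66* share 108 bp with the antisense RNA gene *anr-44* and 22 bp with *serp-1.2* on the opposite strand, and reads from these stretches cannot be assigned without strand. NHR-80 acts with NHR-49 on the desaturases that make oleic acid. Its gene was listed at 23.6, 15.8 and 23.7 FPKM in WT replicates 1 to 3, and at 24.6, 25.5 and 22.6 FPKM in *alh-4(-)* replicates 1 to 3. WT replicate 2 alone was low, and without it the log2 fold change dropped from 0.21 to 0.03.

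The level of *nhr-49* exceeded that of each partner in every library, by a factor of 3.85 to 8.76 for *nhr-13*, 31.5 to 49.6 for *nhr-66*, 31.6 to 56.9 for *nhr-80* and 136 to 303.8 for *nhr-79*. Of the summed FPKM of the 5 receptors, *nhr-49* made up 80.8% to 84.7% in WT and 75.7% to 83.1% in *alh-4(-)*. The sum itself was 879 to 1184 FPKM in WT and 1223 to 1601 FPKM in *alh-4(-)*, without overlap. Its largest part, *nhr-49*, overlapped between the genotypes, and the sum was not tested. To compare the receptors within each library, and so without the scale of the library, the log2 ratio of each partner to *nhr-49* was taken. It was higher in *alh-4(-)* by 0.38 for *nhr-13* and by 0.43 for *nhr-79*, and differed by -0.26 for *nhr-66* and -0.28 for *nhr-80*. All 4 ratios overlapped between the genotypes. Exact permutation tests gave p = 0.4, 0.3, 0.2 and 0.3 for *nhr-13*, *nhr-79*, *nhr-66* and *nhr-80*, each with an adjusted p of 0.4 over the 4 ratios. With 3 libraries against 3 these tests cannot give a p under 0.1.

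**Figure D3:**
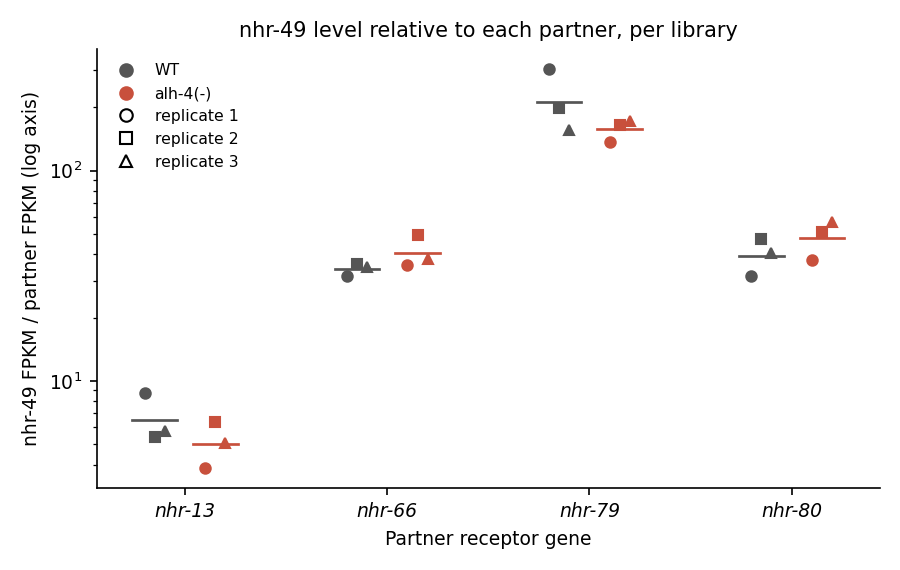
FPKM of *nhr-49* divided by the FPKM of each partner receptor gene (log axis) in 3 WT libraries (grey) and 3 *alh-4(-)* libraries (red), with geometric means as bars. The ratio to *nhr-79* is the largest, from 136 to 303.8, and grey and red points overlap for all 4 partners.

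Among the 277 genes of the table named *nhr*, 212 were tested, and their median WT mean was 8.70 FPKM. By mean level *nhr-49* ranked 2 in WT and 1 in *alh-4(-)*. It changed places with *nhr-114*, a receptor gene with 1020.3 ± 240.4 FPKM in WT (SD, n = 3), and the levels of the pair overlapped in both genotypes. The rank of *nhr-13* went from 10 to 4 and that of *nhr-79* from 148 to 123. By unadjusted p, *nhr-13* ranked 1 and *nhr-49* ranked 8 of the 212 genes. Over the family, 0 genes had an adjusted p under 0.05, and 3 were higher and 4 lower at an unadjusted p under 0.05 (limma), together 3.30% against 4.97% of all tested genes. The median log2 fold change of the family was 0.01, with 108 of the 212 estimates above 0.

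**Figure D4:**
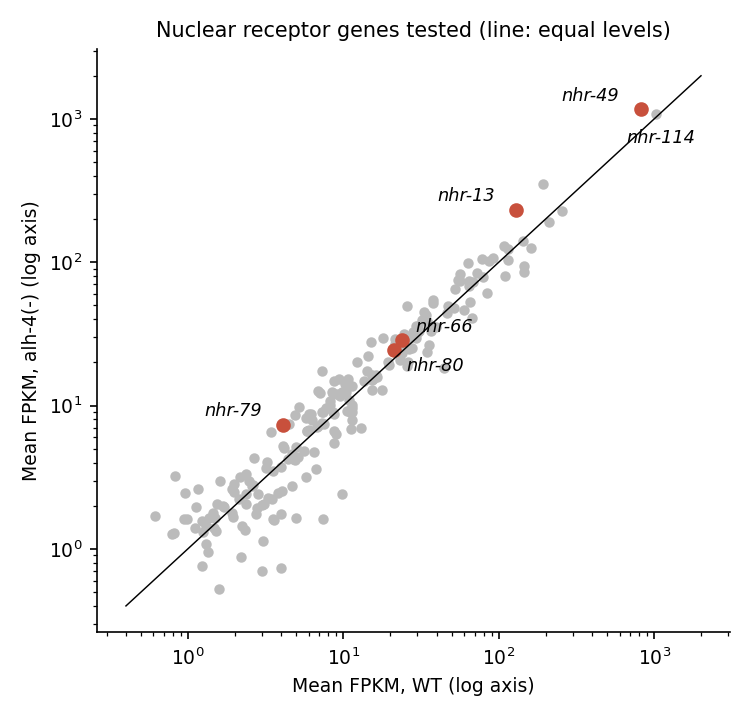
Mean FPKM in *alh-4(-)* against mean FPKM in WT (log axes, n = 3 libraries each) for the 212 tested *nhr* genes (grey), with *nhr-49* and its 4 partners in red and the line of equal levels. *nhr-49* and *nhr-114* lie at the upper end, and both of these and the 4 partners lie above the line.

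The coactivator and the other 3 factors overlapped between the genotypes. The *mdt-15* gene was listed at 79.2, 89.1 and 105.5 FPKM in WT replicates 1 to 3, and at 80.5, 121 and 103.9 FPKM in *alh-4(-)* replicates 1 to 3. Replicate 1 was the lowest library of both genotypes, which overlapped. Its log2 fold change was 0.14 (95% confidence interval -0.41 to 0.70, limma, adjusted p = 0.9998). Exons of *mdt-15* share 93 bp with R12B2.13 on the same strand and 95 bp with R12B2.8 on the opposite strand.

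The *sbp-1* gene was listed at 24.1, 14.7 and 16.9 FPKM in WT replicates 1 to 3, and at 18.9, 17.8 and 18.2 FPKM in *alh-4(-)* replicates 1 to 3. The *alh-4(-)* libraries lay within the WT range, with a coefficient of variation of 2.93% against 26.6% in WT. For *sbp-1* the log2 fold change was 0.01, with a 95% confidence interval of -0.63 to 0.65 (limma, adjusted p = 0.9998). The *hlh-30* gene was listed at 14.2, 9.66 and 10.4 FPKM in WT replicates 1 to 3, and at 15.2, 11.55 and 9.29 FPKM in *alh-4(-)* replicates 1 to 3. Replicate 1 was the highest library in both genotypes. The log2 fold change was 0.06, with a 95% confidence interval of -0.66 to 0.77 (limma, adjusted p = 0.9998). For *sbp-1* and *hlh-30* the sign of the estimate depended on the scaling and on single libraries.

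The *skn-1* gene was listed at 33.2, 31.0 and 38.5 FPKM in WT replicates 1 to 3, and at 37.7, 50.2 and 48.6 FPKM in *alh-4(-)* replicates 1 to 3. The genotypes overlapped only through WT replicate 3 and *alh-4(-)* replicate 1. The log2 fold change was 0.40 ± 0.23 (SE), with a 95% confidence interval of -0.15 to 0.94 and an unadjusted p of 0.130 (limma). Exons of *skn-1* share 41 bp with *csn-5* on the opposite strand, and those of *sbp-1* share 48 bp with *idpc-1*.

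Genes known to be controlled by these factors were read from 4 lists with 22 genes in all, 3 of which are in both the NHR-49 list and the list of SBP-1 and MDT-15. The adjusted p was 0.05 or above for every one that was tested. Of 6 NHR-49 targets 5 were tested, and 1 had an estimate above 0 and 4 below, with a median log2 fold change of -0.53. The list left out the peroxisomal genes that the study reported as raised in *alh-4(-)* and generally lowered in *nhr-49* mutants. Its median thus does not stand for all genes under NHR-49. The stearoyl-CoA desaturase gene *fat-7* was listed at 49.6, 44.9 and 60.1 FPKM in WT replicates 1 to 3, and at 11.6, 11.6 and 19.8 FPKM in *alh-4(-)* replicates 1 to 3. No *alh-4(-)* library of *fat-7* reached the WT range, and the log2 fold change was -1.81 ± 0.29 (SE, limma, unadjusted p = 0.000406, adjusted p = 0.120), past the study's thresholds. Its close relative *fat-6*, with which it may share reads, had a log2 fold change of -0.34 (limma, adjusted p = 0.9998). The β-oxidation gene listed under the older symbol *ech-1* was also lower in every *alh-4(-)* library, with a log2 fold change of -0.71 (limma, unadjusted p = 0.0337), and the palmitoyl-CoA desaturase gene *fat-5* stood at 0.12.

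The list of SBP-1 and MDT-15 holds the same 3 desaturases, with *fat-2* and the lipid synthesis genes *pod-2* and *fasn-1*. All 6 genes were tested, with 3 estimates above 0 and 3 below and a median log2 fold change of 0.04. Of the 6, 1 gene, *fat-7*, passed the study's thresholds, against 2.92% of all tested genes. The acetyl-CoA carboxylase gene *pod-2* was higher in every *alh-4(-)* library, at 2198 to 2275 FPKM against 1550 to 2086 FPKM in WT, with a log2 fold change of 0.33 (limma, unadjusted p = 0.114). The fatty acid synthase gene *fasn-1* stood at 0.25 with overlapping genotypes.

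Of 7 SKN-1 targets 6 were tested, and their median was 0.02, with 3 estimates above 0 and 3 below. Both directions held genes past the study's thresholds, 2 of 6 in all, against 2.92% of all tested genes. The glutathione S-transferase gene *gst-7* was listed at 1446, 1524 and 1631 FPKM in WT replicates 1 to 3, and at 3121, 3766 and 3532 FPKM in *alh-4(-)* replicates 1 to 3. All *alh-4(-)* libraries were thus far above WT, and the log2 fold change was 1.18 ± 0.17 (SE, limma, adjusted p = 0.0825). The nitrilase gene *nit-1* was listed at 49.5, 46.9 and 38.8 FPKM in WT replicates 1 to 3, and at 14.5, 19.6 and 23.6 FPKM in *alh-4(-)* replicates 1 to 3, with a log2 fold change of -1.21 (limma, adjusted p = 0.357). Another transferase gene, *gst-10*, had a log2 fold change of -0.81 (limma, unadjusted p = 0.00647) without overlap, while *gst-4* and *gcs-1*, widely used reporters of SKN-1, stood at 0.04 and -0.01, and *dhs-8* at 0.11.

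The 6 HLH-30 targets were all tested, and 0 of 6 had an unadjusted p under 0.05 (limma), against 4.97% of all tested genes. The median was 0.40, with 4 estimates above 0 and 2 below. The lysosomal lipase genes differed in sign, with *lipl-1* at 0.57, *lipl-3* at -0.67 and *lipl-2* at -1.14. The value of *lipl-2* rested on *alh-4(-)* replicate 1, where it was at 0, and was 0.06 without that library. The autophagy receptor gene *sqst-1* stood at 0.49.

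**Figure D5:**
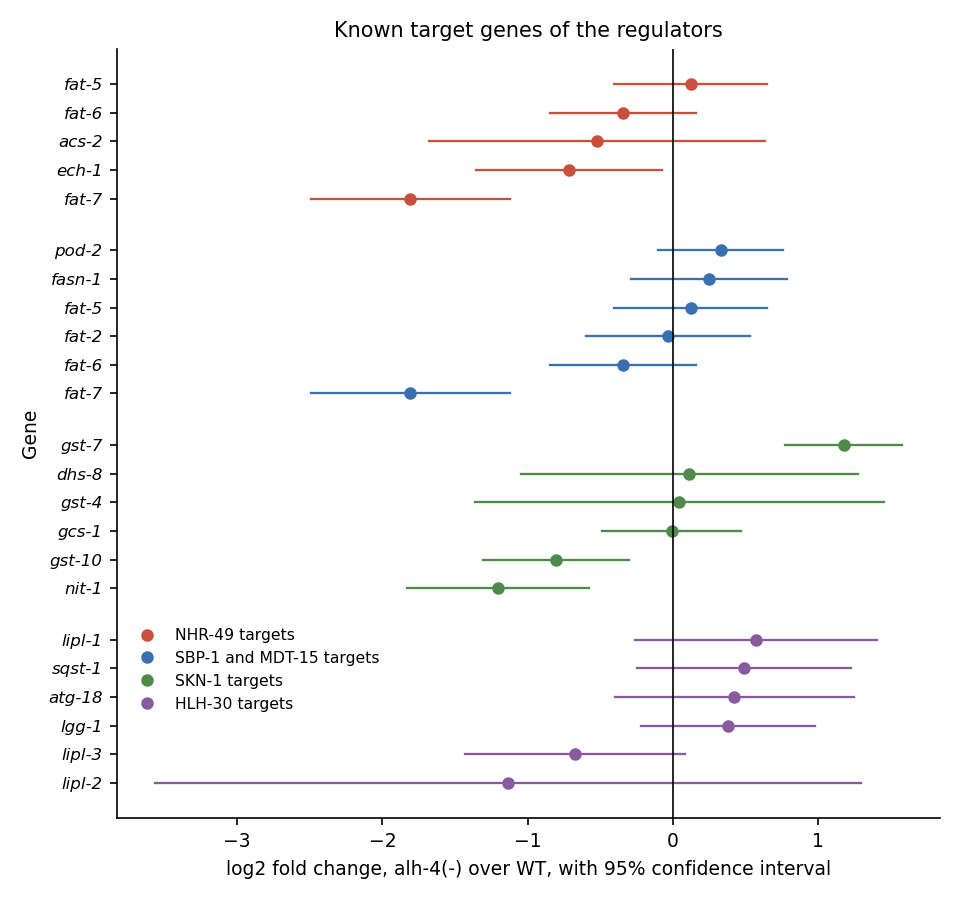
Log2 fold change of *alh-4(-)* over WT (points) with its 95% confidence interval from limma (lines) for the tested genes of 4 lists of known targets, where genes in 2 lists are drawn in each. The interval of *gst-7* lies above 0 and those of *fat-7*, *ech-1*, *gst-10* and *nit-1* below 0, and the others span 0.

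Proteins that act on these factors, in 3 lists, gave no gene with an unadjusted p under 0.05 (limma), against 4.97% of all tested genes. Of 6 upstream and partner proteins of HLH-30 (median log2 fold change 0.06), the TOR complex genes *daf-15* and *let-363* stood at 0.34 and 0.28, and *mxl-3* and *mxl-2*, genes of basic helix-loop-helix proteins, at -0.11 and -0.07. Of 6 upstream proteins of SKN-1 (median 0.18), *wdr-23*, whose product promotes the degradation of SKN-1, stood at 0.28, F46F11.6, listed elsewhere as *xrep-4*, at 0.22, the kinase gene *sek-1* at 0.04 and the kinase gene *gsk-3* at -0.26. Of 5 upstream proteins of SBP-1 (median 0.20), the phosphatidic acid phosphatase gene *lpin-1* stood at 0.27, *scp-1*, the gene of an escort protein of SBP-1, at 0.22, and the methyl donor and phosphatidylcholine synthesis genes *pmt-1* and *sams-1* at 0.16 and -0.20.

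The Mediator complex, to which MDT-15 belongs, bridges transcription factors and RNA polymerase II. All 27 of its listed genes, *mdt-15* among them, were tested, with 20 estimates above 0 and 7 below. Their median log2 fold change was 0.13, against 0.07 over all tested genes. At an unadjusted p under 0.05 there were 0 of 27 (limma), against 4.97% of all tested genes. The highest were the cyclin C gene *cic-1* at 0.41 and its kinase gene *cdk-8* at 0.39, and the lowest were *mdt-1.2* at -0.26 and *mdt-20* at -0.14.

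The study drew up 52 candidate transcription factors for a screen, and 6 of the 9 regulators are among them. From the literature on fat storage came 10, *nhr-79* and *nhr-80* included, and all 10 were tested, with 9 estimates above 0. Their median log2 fold change was 0.29, against 0.07 over all tested genes. The highest were *nhr-79* and *daf-16*, the FOXO factor gene of insulin signalling. The level of *daf-16* was 168, 185 and 239 FPKM in WT replicates 1 to 3, and 240.2, 371 and 321 FPKM in *alh-4(-)* replicates 1 to 3. The genotypes touched without overlap, and the log2 fold change was 0.65 (limma, unadjusted p = 0.0321, adjusted p = 0.910). The lowest of the 10 were the nuclear receptor genes *nhr-45* and *daf-12*, at 0.14 and -0.04. The other 42 came from motifs in promoters of genes that the study had called on these libraries, so the list is not independent of them. Of these 37 were tested, with 24 estimates above 0 and 13 below and a median of 0.04, and 1 passed the study's thresholds, 2.70% against 2.92% of all tested genes. It was the GATA factor gene *elt-6*, at 35.1, 25.1 and 11.8 FPKM in WT replicates 1 to 3 and 11.3, 5.65 and 9.86 FPKM in *alh-4(-)* replicates 1 to 3, with a log2 fold change of -1.26 (limma, unadjusted p = 0.0268). The highest 2 were *ztf-28* at 0.82 and *hlh-1* at 0.63. The other low gene, *hlh-8*, stood at -1.06 with *alh-4(-)* replicate 1 at 0, and at 0.28 without that library.

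The profiles most like that of *nhr-49* over the 6 libraries, by the root mean square difference of log2(FPKM + 1) after centring each gene, were those of *tbc-9* (0.0488), R12E2.1 (0.0519) and *patr-1* (0.0529), where the profile of *nhr-49* itself varied by 0.324 about its mean. For *nhr-79*, which varied by 0.493, they were T28H10.3 (0.0673), *mom-2* (0.0884) and F12F6.2 (0.0945). These are descriptions of 6 libraries, picked as the nearest of 16225 genes.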

How the data were processed

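RNA-seq libraries of 3 WT and 3 *alh-4(-)* samples were used, grouped by their labels, which call them biological replicates. The values are FPKM per gene, computed and deposited by the authors for each library without pooling. The submitters' processing notes name bcl2fastq 2.19, Trimmomatic 0.36, HISAT2 2.1.0, SAMtools 1.3 and StringTie 1.3.3, and the genome build ce10. They also list the build mm10, while the study states only ce10 for the mapping. Whether fragments were counted by strand is not given in the sources used here. Low values held no trace of whole fragments (a common step), and with the depth unknown no counting interval is given. All columns were mapped to samples.

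Genes whose FPKM averaged 1 or more in the 6 libraries, a filter kept when libraries were left out, were tested on log2(FPKM + 1) with limma 3.58.1 in R 4.3.3 (eBayes with a trend, two-sided, Benjamini-Hochberg over all tested genes), and the script was tested on simulated data. Permutation tests were two-sided and exact (SciPy 1.17.1). Means and SD are over 3 libraries. Alternatives were a pseudocount of 0.1, no filter, an average of 10 FPKM or more, array quality weights, upper quartile scaling, quantile normalization, no trend in eBayes, a replicate block, each library left out and both replicate 1 libraries left out.

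The 9 genes, the gene lists and the tests were chosen with earlier results of these data known. Genes named are the 9, *alh-4*, the 2 highest and 2 lowest of each list by log2 fold change, list genes past a threshold and the 3 nearest profiles. The targets *fat-2*, *gst-4* and *gcs-1*, the receptor gene *nhr-114* and single marker genes were named after their values were seen. The Mediator list holds F28F8.5, the current *mdt-28*, and not the row of that name, which carries an older use of the symbol. Coordinates and exon overlaps come from the Ensembl 115 annotation of WBcel235, a different build from ce10, and were not converted. Sequences were not used here.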

Additional observations from a re-analysis of the deposited data

How the results depend on the processing

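Under the 15 alternatives to the fit, 0 of the 9 regulators reached an adjusted p under 0.05, and 7 kept an estimate above 0 under each that tested them (*nhr-79* is below a mean FPKM of 10). The log2 fold change of *sbp-1* (0.01) was -0.066 with quantile normalization and -0.068 with upper quartile scaling, and -0.14 to 0.20 with single libraries left out. That of *hlh-30* (0.06) was -0.013, -0.014 and -0.14 with quantile normalization, upper quartile scaling and array quality weights, and -0.11 to 0.22 with single libraries left out. *lipl-2* ran from -1.77 to 0.057 and *hlh-8* from -1.99 to 0.28 with single libraries left out, and *hlh-8* was 0.32 without both replicate 1 libraries. *gst-7* had an adjusted p of 0.0132 with array quality weights (limma). Over all genes, 23 had an adjusted p under 0.05, against 11 without a filter, 36 with quantile normalization, 35 with upper quartile scaling, 91 with array quality weights, 9 without both replicate 1 libraries, and 6 (without *alh-4(-)* replicate 3) to 25 with single libraries left out. The study's thresholds gave 473 genes, against 266 at a mean FPKM of at least 10, 894 with array quality weights, 736 without both replicate 1 libraries, and 361 to 930 (without *alh-4(-)* replicate 1) with single libraries left out. An unadjusted p under 0.05 was found for 806 genes, against 2373, 1444 and 535 to 1778 under the last 3 of these settings. Of 180 list medians under alternatives, 9 moved by more than 1 SD between replicates, 6 of them for the targets of SBP-1 and MDT-15. The causes were not tested.

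With the replicate number as a block (replicate block), 15 genes had an adjusted p under 0.05 and 1379 an unadjusted p under 0.05, and *nhr-49* and *nhr-13* were the regulators with an unadjusted p under 0.05. With the genotype means removed, the WT and *alh-4(-)* libraries of replicate 1 correlated at 0.31. The value was 0.28 for replicate 2 and 0.0049 for replicate 3. Without values for differently numbered libraries beside them, these values do not settle whether the numbers pair the samples. The ratios of the partners to *nhr-49* gave p = 0.25 or above by exact sign flips over same-numbered libraries, the smallest that 3 pairs allow, and kept their direction under each alternative. The depth is unknown, so no detection limit could be set for low genes such as *nhr-79*.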
